A study of Mus musculus with 4 samples.

Results

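Chemokines are small secreted proteins that direct the movement of leukocytes, and chemokine receptors are the G protein-coupled receptors through which cells read them. The set described here is every gene measured by a probe with a single symbol that begins with Ccl, Cxcl, Ccr or Cxcr followed by a digit, 48 of the 22180 genes on the array. It holds 32 ligands, of which 19 are CC and 13 are CXC chemokines, and 16 receptors, of which 10 bind CC and 6 bind CXC chemokines. A gene with several probes was represented by the probe with the highest mean over the 4 arrays, which concerned 1 member, Ccl27a.

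RNA of epigonadal white adipose tissue, the fat pad beside the testis and epididymis, was taken from fasted male mice and measured on Affymetrix arrays as log2 signal, where a difference of 1 is 2-fold. The Irs1/2-flox control carried floxed alleles of Irs1 and Irs2, the insulin receptor substrates that pass the insulin signal on inside the cell, and no Cre. LDKO mice carried the same floxed alleles together with Albumin-Cre. A further control, Irs1/2:FoxO1-flox, also carried floxed Foxo1, a transcription factor that insulin signalling holds in check, and LTKO mice had those alleles with Albumin-Cre. The albumin promoter directs Cre to hepatocytes, so that fat is not the targeted tissue, and all 4 groups carried floxed Irs1 and Irs2. LDKO and LTKO mice were 4 months old per the labels, which give no age for the controls and do not say whether an array held RNA of 1 mouse or of a pool. Each group had 1 array, so no difference below has a replicate check, no test was possible, and differences are given by their size. Where 4 values of a gene stand in a row, the control and LDKO of the Irs1/2-flox line come first, followed by the control and LTKO of the Irs1/2:FoxO1-flox line.

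CC and CXC ligands are named for the spacing of their first cysteines. In fat, ligands such as Ccl2 draw monocytes that become macrophages, eotaxins draw eosinophils, interferon-induced CXC ligands draw T cells and NK cells, and the homeostatic ligands Cxcl12 and Cxcl13 place cells without inflammation. A receptor is found mainly on the arriving leukocyte, while a ligand may come from macrophages, stroma, mesothelium or fat cells.

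The arrays carried the label's tissue, with the adipocyte hormone Adipoq between 10.35 and 10.57. Arrays also differed in other tissues' markers. In LTKO, 6 of 9 epididymis markers were at least 2-fold above the Irs1/2:FoxO1-flox control, with the list's mean log2 signal at 5.59 against 3.80 to 3.91 on the other arrays, and the hepatocyte list stood at 6.56 against 4.66 to 4.75. Of the testis and sperm markers 4 of 7 were at least 2-fold higher there, with the list at 6.35 against 4.65 to 4.67. In the Irs1/2-flox control the skeletal muscle list stood at 6.07 against 4.94 to 5.11 on the other arrays, and the mesothelial list at 7.44 against 6.75 to 6.89. No marker of these lists had a signal of 0 on any array. Array signals include background, so this does not show that these tissues' transcripts were present on every array. The part of these tissues in the results below was not tested. Fewer cells of a type and less RNA per cell cannot be told apart in such bulk tissue.

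Of the 48 members, 18 had a mean over the 4 arrays at or above that of the median gene, which was 5.15. They were 16 ligands and 2 receptors, Ccr2 and Cxcr4. Another 4, namely Ccr7, Cxcl17, Cxcr1 and Cxcr3, reached that level on at least 1 array, and 26 lay under it on every array. Array signals compress differences near the background, so the differences of these dim members may understate the true size. A dim signal may also be mostly background, and then its difference need not reflect the gene.

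The promoters of 6 members are shown because the results turn on them, or because they are the neighbouring pair Cxcl1 and Cxcl2. They were picked after the values were seen. Each is the 250 bases before the annotated transcription start in RefSeq, build GRCm38.p6, 5′ to 3′ on the gene's own strand. Capitals mark matches to any of 4 motifs, namely the NF-kB consensus, the interferon-stimulated response element core, which is GAAA, any 2 bases and GAAA (both on both strands), the GAS motif TTCNNNGAA (a palindrome), and TATAAA on the gene's strand. Ccl28 is at chr13:119623569-119623818 on the plus strand, Cxcl9 at chr5:92328080-92328329 on the minus strand, Cxcl13 at chr5:95956689-95956938 on the plus strand and Ccl9 at chr11:83578637-83578886 on the minus strand. Cxcl1 is at chr5:90890995-90891244 and Cxcl2 at chr5:90903649-90903898, both on the plus strand.
Ccl28: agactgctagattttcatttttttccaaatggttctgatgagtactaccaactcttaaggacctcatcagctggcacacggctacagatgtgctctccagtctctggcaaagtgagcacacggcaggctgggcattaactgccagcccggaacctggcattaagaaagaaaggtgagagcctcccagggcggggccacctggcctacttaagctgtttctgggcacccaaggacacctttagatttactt
Cxcl9: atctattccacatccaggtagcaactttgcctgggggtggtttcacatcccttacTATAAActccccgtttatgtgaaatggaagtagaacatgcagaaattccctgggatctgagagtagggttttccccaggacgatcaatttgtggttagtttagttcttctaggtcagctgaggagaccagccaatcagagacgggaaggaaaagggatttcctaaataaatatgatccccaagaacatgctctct
Cxcl13: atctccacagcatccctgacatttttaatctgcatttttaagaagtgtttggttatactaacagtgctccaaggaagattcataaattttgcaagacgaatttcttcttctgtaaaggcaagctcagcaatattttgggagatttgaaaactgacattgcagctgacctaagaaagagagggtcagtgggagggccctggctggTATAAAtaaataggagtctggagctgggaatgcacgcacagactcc
Ccl9: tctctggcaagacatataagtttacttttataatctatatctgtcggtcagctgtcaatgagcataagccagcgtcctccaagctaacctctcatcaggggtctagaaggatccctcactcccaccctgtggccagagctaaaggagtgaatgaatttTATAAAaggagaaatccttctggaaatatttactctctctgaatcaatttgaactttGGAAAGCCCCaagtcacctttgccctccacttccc
Cxcl1: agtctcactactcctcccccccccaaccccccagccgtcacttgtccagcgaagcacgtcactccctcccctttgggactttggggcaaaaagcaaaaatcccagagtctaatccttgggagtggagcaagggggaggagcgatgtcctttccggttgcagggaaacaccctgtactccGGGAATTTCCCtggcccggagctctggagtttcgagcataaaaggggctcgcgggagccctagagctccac
Cxcl2: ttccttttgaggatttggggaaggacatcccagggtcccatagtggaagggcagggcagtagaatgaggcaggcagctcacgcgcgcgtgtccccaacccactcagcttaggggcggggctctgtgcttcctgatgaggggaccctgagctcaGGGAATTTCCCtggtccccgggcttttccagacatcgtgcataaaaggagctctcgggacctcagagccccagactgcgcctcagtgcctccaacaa

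The Ccl28 window held no match to these motifs. In Cxcl9 TATAAA began 195 bases before the start, and in Cxcl13 it began 46 bases before it. The Ccl9 window held TATAAA from base 92 before the start and an NF-kB match on the opposite strand, read as GGAAAGCCCC on the gene's strand, 35 to 26 bases before the start. Cxcl1 and Cxcl2 each held GGGAATTTCC, from base 71 and base 97 before the start respectively, with a second match on the opposite strand that overlaps it by all but its outermost base. A local alignment of these windows covered 123 columns with 90 identities, which is 73.2%. RefSeq windows were found for 34 of the 48 member genes, 38 windows in all. NF-kB matches were in 8 member windows, which is 21.1%, beside 3.90% of all 32851 windows, and the 8 genes were Ccl9, Ccl20, Cxcl1, Cxcl2, Cxcl3, Cxcl10, Ccr3 and Ccr6. TATAAA was in 9 of the 38, 23.7% beside 7.59%, GAS in 4, 10.5% beside 7.02%, and the interferon element core in 2, Cxcl10 and Cxcl14, 5.26% beside 2.98%. A match describes the letters only.

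Across the 4 arrays the members did not share 1 order, but the 2 arrays of the Irs1/2-flox line more often stood above the 2 arrays of the Irs1/2:FoxO1-flox line than the other way round. Both Irs1/2-flox line arrays exceeded both Irs1/2:FoxO1-flox line arrays in 23 of 48 members, 47.9% beside 18.3% of all genes. The opposite held for 2 members, Cxcl3 and Ccr4, 4.17% beside 17.5%. The 23 came from most roles, with 4 of the 9 CC ligands of monocytes and macrophages, 4 of the 10 other CC ligands, 4 of the 5 neutrophil-attracting CXC ligands, 3 of the 5 homeostatic CXC ligands, 5 of the 10 CC receptors and 3 of the 6 CXC receptors. None of the 3 interferon-induced CXC ligands was among them. Line, floxed Foxo1, animal and array cannot be told apart here.

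The line difference was seen without Cre and with it. Between the controls, 34 of 48 members were lower in the Irs1/2:FoxO1-flox control than in the Irs1/2-flox control, 70.8% beside 49.2% of all genes, with a median difference of -0.17 over all 48. Between the Cre lines, 39 of 48 were lower in LTKO than in LDKO, 81.2% beside 50.8%, with a median of -0.22. These comparisons share no array, and 28 members were lower in both, 58.3% beside 25.9% of all genes, while 3 were lower in neither, 6.25% beside 25.9%. In the other pairs across the lines, 38 of 48 members were lower in the Irs1/2:FoxO1-flox control than in LDKO, 79.2% beside 50.3%. In LTKO 38 of 48 were lower than in the Irs1/2-flox control, 79.2% beside 50.8%. Of the 18 members that reached the median gene, 12, 15, 12 and 16 were lower in these pairs, in the order given. Of all such genes 44.2%, 42.4%, 39.0% and 48.5% were lower. Dim genes were thus lower more often than all genes in each pair, and 30 of the 48 members were dim. The part of other tissues and cell types in the pairs across the lines was not tested. Other genes of the chemokine system stood this way, with both Irs1/2-flox line arrays above both others, in 3 of 11, and the opposite way in 1. Signalling and trafficking genes did so in 6 of 19 and inducers of chemokines in 7 of 21, with 1 and 2 the opposite way. Some marker lists stood this way in as large a share as the members, namely skeletal muscle in 4 of 8 and lymph node stroma in 4 of 6, of which Cxcl13 is 1. Eosinophil and mast cell markers did so in 3 of 9, T cell markers in 3 of 9, B and plasma cell markers in 2 of 6, NK cell markers in 2 of 7, macrophage markers in 3 of 14 and mesothelial markers in 2 of 10, and none of these lists had a marker standing the opposite way. Stromal and endothelial markers stood only the opposite way, in 3 of 9 and 2 of 8. So did testis and sperm markers in 2 of 7, and dendritic cell, epididymis and hepatocyte markers with 1 each. Mixed lists were those of neutrophils, with 2 this way and 1 the opposite way, adipocytes, with 2 and 2, and lipid-associated macrophages, with 1 and 1. Of all genes 18.3% stood this way and 17.5% the opposite way, and the macrophage and mesothelial shares lay near the first.

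**Figure D1:**
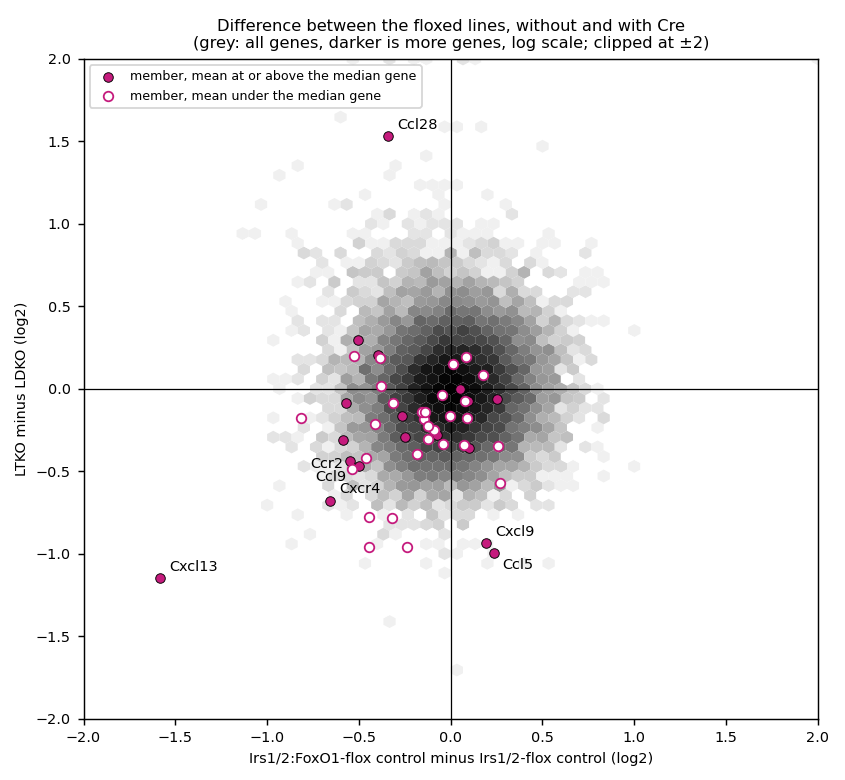
Each pink point is 1 member, by its log2 difference between the floxed controls without Cre (horizontal) and between LTKO and LDKO (vertical), over all genes in grey, with filled points for members whose mean reached the median gene. Most members lie in the lower left, 28 of 48 being lower in both comparisons, with Cxcl13 farthest out and Ccl28 alone at the top.

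Cxcl13, the ligand that draws B cells through Cxcr5, had the largest difference between the floxed controls of the 48 members. Its signal was 8.87 and 8.16 on the Irs1/2-flox line (control, then LDKO) and 7.28 and 7.01 on the Irs1/2:FoxO1-flox line (control, then LTKO). The arrays of the lines did not overlap, and within each line the array with Cre was the lower, at -0.71 in LDKO and -0.27 in LTKO. The difference between the controls was -1.58, and between LTKO and LDKO it was -1.15. Between the controls Cxcl13 was the 1 member of the 20 past the filter that was at least 2-fold apart, beside 0.77% of genes. A gene passed the filter of a comparison when the higher of its arrays reached the median gene. All 10 mesothelial markers were also lower in the Irs1/2:FoxO1-flox control than in the Irs1/2-flox control, with a median of -0.74. Of all genes that reached the median gene, 44.2% were lower in that comparison. Between LTKO and LDKO, 7 of the 10 were higher in LTKO, where 42.4% of such genes were lower. The part of mesothelial RNA in the Cxcl13 values was not tested. Cxcr5 itself was dim, at 4.74, 5.02, 4.83 and 4.84 in that order, and did not separate the lines.

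Cxcr4, the receptor of Cxcl12 on many leukocytes, was the clearest receptor of this kind. It stood at 6.97 in the control and 6.89 in LDKO on the Irs1/2-flox line, and 6.31 in the control and 6.22 in LTKO on the other line. Its differences with Cre were -0.08 and -0.10, while the lines differed by -0.66 without Cre and by -0.68 with it. Its ligand Cxcl12, made by stroma, did not follow, with 8.32, 8.56, 8.42 and 8.49 in that order, a range of 0.24. Ackr3, the decoy receptor that removes Cxcl12, was at 6.66, 6.40, 6.45 and 6.55. Cxcl12 and Ackr3 thus did not separate the lines as Cxcr4 did.

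Ccr2, the receptor by which monocytes answer Ccl2, was at 6.47 and 6.03 on the Irs1/2-flox line and at 5.92 and 5.59 on the other line. Each array with Cre was under its own control, at -0.45 in LDKO and -0.33 in LTKO, and each Irs1/2:FoxO1-flox line array was under both of the other line. Ccl2 itself was at 5.38, 5.59, 5.47 and 5.24, highest in LDKO and lowest in LTKO within a range of 0.36. Ccl7, another ligand of Ccr2, was at 5.82, 5.25, 5.42 and 5.45, highest in the Irs1/2-flox control, with a difference of -0.57 in LDKO and 0.03 in LTKO. The ligands of Ccr2 therefore shared no order of the arrays with the receptor or with each other. Ccl8 and Ccl12, dim CC ligands of the same monocyte and macrophage list as Ccl2 and Ccl7, reached at most 4.65 and 3.45.

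Ccl9 and Ccl6 are related CC ligands made by macrophages and other myeloid cells. Ccl9 was at 10.33 and 9.93 on the Irs1/2-flox line (control, then LDKO) and 9.83 and 9.46 on the Irs1/2:FoxO1-flox line (control, then LTKO), with differences of -0.40 in LDKO and -0.37 in LTKO. Ccl6 was at 8.90, 8.19, 8.33 and 8.11, with differences of -0.71 in LDKO and -0.22 in LTKO. Both were highest in the Irs1/2-flox control and lowest in LTKO, as was Ccr2. Ccl4, which attracts monocytes and T cells, had the same order as Ccl9 at 5.45, 5.27, 5.20 and 4.98. Macrophage markers were lower in LDKO in 13 of 14 and lower in LTKO in 13 of 14, with medians of -0.35 and -0.34. Of all genes that reached the median gene, as all 14 did, 57.4% were lower in LDKO and 58.1% in LTKO. The log2 of the macrophage markers' summed signal was 12.61, 12.19, 12.35 and 12.06. The macrophage list too was thus highest in the Irs1/2-flox control and lowest in LTKO.

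The eotaxins, which attract eosinophils through Ccr3, were Ccl11 and Ccl24 among the members that reached the median gene. Ccl11 was at 8.69 in the control and 8.17 in LDKO on the Irs1/2-flox line, and 8.10 in the control and 7.85 in LTKO on the other line. Ccl24 was at 6.10, 5.45, 5.60 and 5.75. Both were highest in the Irs1/2-flox control and lower in LDKO, Ccl11 by a difference of -0.52 and Ccl24 by -0.65, and in LTKO they parted with -0.25 and 0.15. Between the controls the differences were -0.59 for Ccl11 and -0.50 for Ccl24. Ccr3 was dim at 3.85, 3.63, 3.03 and 3.45, also highest in the Irs1/2-flox control. The eosinophil and mast cell list averaged 4.56 there against 4.16 to 4.27 on the other arrays, with 7 of its 9 markers under the median gene. Its mast cell genes Cpa3, Mcpt4 and Kit were highest there, with Cpa3 at 7.55, 7.11, 6.45 and 6.43, while Cma1 and Fcer1a were not. Of its eosinophil markers, all dim, only Epx was highest there. Siglecf was highest in LDKO, and Prg2 and Il5ra in the Irs1/2:FoxO1-flox control.

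The comparison of LDKO with the Irs1/2-flox control addresses what fat shows when the liver lacks Irs1 and Irs2. None of the 21 members past the filter was at least 2-fold apart, beside 1.2% of 11533 genes. At 1.5-fold, which is 0.585 on the log2 scale, 5 of the 21 were apart, beside 6.74% of genes. Ccl5 and Ccr7 were higher, beside 2.85% of genes, and Ccl6, Ccl24 and Cxcl13 were lower, beside 3.88%. Ccr7 had a mean under the median gene and passed the filter only through LDKO, the array where it was high. Ccr7 at 1.503-fold lay just inside that size and Cxcl9 at 1.490-fold just outside. Over the 18 members that reached the median gene, 6 were higher and 12 lower, where 57.4% of all such genes were lower, with a median of -0.13 beside -0.05. Over all 48 the split was 26 higher and 22 lower, where 49.7% of all genes were lower, with a median of 0.02, and 13 of the 16 dim ligands were higher in LDKO, beside 57.8% of all dim genes.

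Ccl5, a ligand that T cells and NK cells make themselves, was at 6.16 and 6.92 on the Irs1/2-flox line (control, then LDKO) and 6.39 and 5.92 on the Irs1/2:FoxO1-flox line (control, then LTKO). LDKO stood 1.70-fold above its control and LTKO 1.38-fold under its own. Cxcl9, which interferon gamma induces and which draws T cells through Cxcr3, had the same order at 8.60, 9.18, 8.79 and 8.24. Its differences were 0.58 in LDKO and -0.55 in LTKO. Ccl5, Cxcl9 and Ccl2 were the 3 members of the 18 with LDKO highest and LTKO lowest, 16.7% beside 7.22% of genes of that level. The other interferon-induced ligands were dim and ran flat, Cxcl10 from 4.54 to 4.67 and Cxcl11 from 4.58 to 4.72. Cxcr3 was at 5.20 and 5.21 on the Irs1/2-flox line and at 4.67 and 4.72 on the other line.

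Markers of lymphocytes stood beside Ccl5 and Cxcl9. In LDKO 9 of 9 T cell markers were higher than in the control, with a median of 0.22, and in LTKO 7 of 9 were lower. NK cell markers were higher in LDKO in 7 of 7 and B and plasma cell markers in 6 of 6, with medians of 0.31 and 0.52. In LTKO the NK cell markers split into 3 higher and 4 lower, with a median of -0.06. The B and plasma cell markers split there into 1 higher and 5 lower, with a median of -0.22. Of all dim genes 57.8% were higher in LDKO. In LTKO 54.3% of all genes were lower, a share near that of the NK cell markers. The log2 of the summed T cell signal was 7.95 in the control and 8.18 in LDKO on the Irs1/2-flox line, and 7.98 in the control and 7.74 in LTKO on the other line. That order of the arrays is the order of Ccl5 and of Cxcl9, though the controls lay close together, at 7.95 and 7.98. Singly, Cd3e, Cd8a and Foxp3 had that order, while Cd3d, Cd3g, Cd4, Cd8b1, Cd2 and Cd5 did not. The summed NK cell signal did not have it either, at 7.1649, 7.4682, 7.2708 and 7.1657. Most of these markers were dim, with 2 of 9 T cell, 2 of 7 NK cell and 0 of 6 B cell markers reaching the median gene, and their part in the values of Ccl5 and Cxcl9 was not tested.

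Ccr7, by which dendritic cells and lymphocytes enter lymphoid tissue, reached the median gene in LDKO only. It was at 4.82 and 5.41 on the Irs1/2-flox line (control, then LDKO) and 4.50 and 4.62 on the Irs1/2:FoxO1-flox line (control, then LTKO). LDKO was above the other 3 arrays, by 0.59 over its own control, and LTKO minus LDKO was -0.78. Ccl3, a dim ligand of inflamed macrophages, was also highest in LDKO at 4.92, against 4.43 in its control and 4.19 and 3.96 on the other line. The 5 neutrophil-attracting ligands Cxcl1, Cxcl2, Cxcl3, Cxcl5 and Cxcl15, neighbours in 1 gene cluster, were each under the median gene on every array. LDKO exceeded the control for all 5, by 0.03 to 0.39, where 57.8% of all dim genes were higher. Cxcl1 was at 4.09, 4.49, 3.65 and 3.71 and Cxcl2 at 4.06, 4.09, 3.92 and 3.95, so that both were highest in LDKO and lowest in the Irs1/2:FoxO1-flox control. None of the 7 neutrophil markers reached the median gene.

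**Figure D2:**
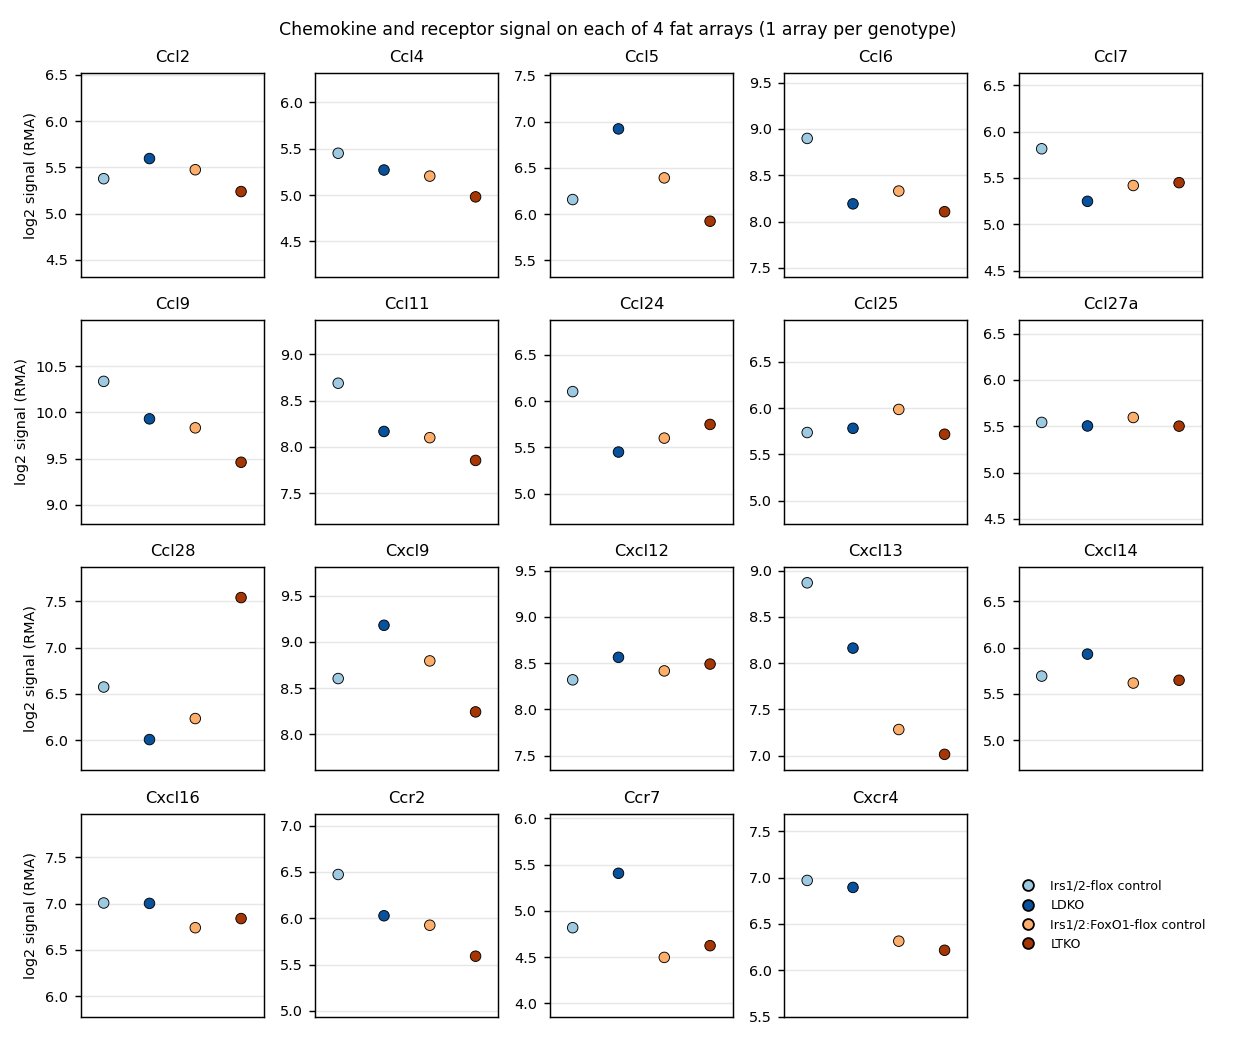
Log2 signal of the 19 members given on every array, each panel spanning the same number of log2 units, with 1 point for each of the 4 arrays. Cxcl13 and Cxcr4 are higher on both arrays of the Irs1/2-flox line (blue), Ccl5 and Cxcl9 are highest in LDKO and lowest in LTKO, and Ccl28 is highest in LTKO.

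The comparison of LTKO with the Irs1/2:FoxO1-flox control addresses the same question where Foxo1 is lost from the liver as well. Of the 19 members past the filter 1 was at least 2-fold apart, Ccl28, beside 1.78% of genes, and no further member was 1.5-fold apart, beside 4.41%. The 18 members that reached the median gene split into 6 higher and 12 lower, where 58.1% of all such genes were lower, with a median of -0.22 beside -0.04. Over all 48 it was 21 higher and 27 lower, where 54.3% of all genes were lower, with a median of -0.06. LTKO was the lowest of the 4 arrays for 12 of the 18, 66.7% beside 19.8% of genes, and the Irs1/2-flox control was the highest for 10, 55.6% beside 24.2%.

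Ccl28, a ligand made chiefly by mucosal epithelium that acts through Ccr3 and Ccr10, was at 6.57 in the control and 6.01 in LDKO on the Irs1/2-flox line, and 6.23 in the control and 7.54 in LTKO on the other line. LTKO was 2.47-fold above its control and above each of the other arrays, while LDKO was 1.48-fold under its control. Against the Irs1/2-flox control the LTKO difference was 0.97, short of 2-fold. Among the 18 members Ccl28 was the only one with LTKO highest. The epithelial keratins Krt8 and Krt18 were likewise highest in LTKO and next in the Irs1/2-flox control, Krt8 at 7.05, 6.54, 6.29 and 7.20 and Krt18 at 6.73, 6.11, 5.91 and 6.75. They belong to the mesothelial list, which split into 5 higher and 5 lower in LTKO against its control, with a median of -0.09 and with Lrrn4 at -0.65 and Msln at -0.31, and they were chosen after their values were seen. Epididymis markers had a log2 summed signal of 9.58 in LTKO and 7.15 to 7.24 on the other arrays, with Gpx5 at 8.28 in LTKO and at most 3.32 elsewhere. The part of epididymal RNA in the Ccl28 value was not tested. The receptor Ccr10 was dim, at 3.73, 4.12, 3.99 and 3.77, and was not high in LTKO.

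Directly between the Cre lines, 2 of the 21 members past the filter were at least 2-fold apart, beside 2.11% of genes. Ccl28 was the higher in LTKO at 1.53 and Cxcl13 the lower at -1.15, with Ccl5 just short of that size at -0.997 and Cxcl9 at -0.94. At 1.5-fold there were 6, beside 7.98%, of which Ccl28 was higher and Ccl5, Ccr7, Cxcl9, Cxcl13 and Cxcr4 were lower, beside 2.57% lower. Ccr7 passed the filter here only through LDKO, the array where it was high. Set against their own controls, the effects in LTKO and LDKO were at least 2-fold apart for 3 of 22 members, Ccl28, Ccl5 and Cxcl9, beside 4.01%. Cxcl13 and Cxcr4 were not among the 3, at 0.44 and -0.02, as their lines differed in the same direction between the controls.

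**Figure D3:**
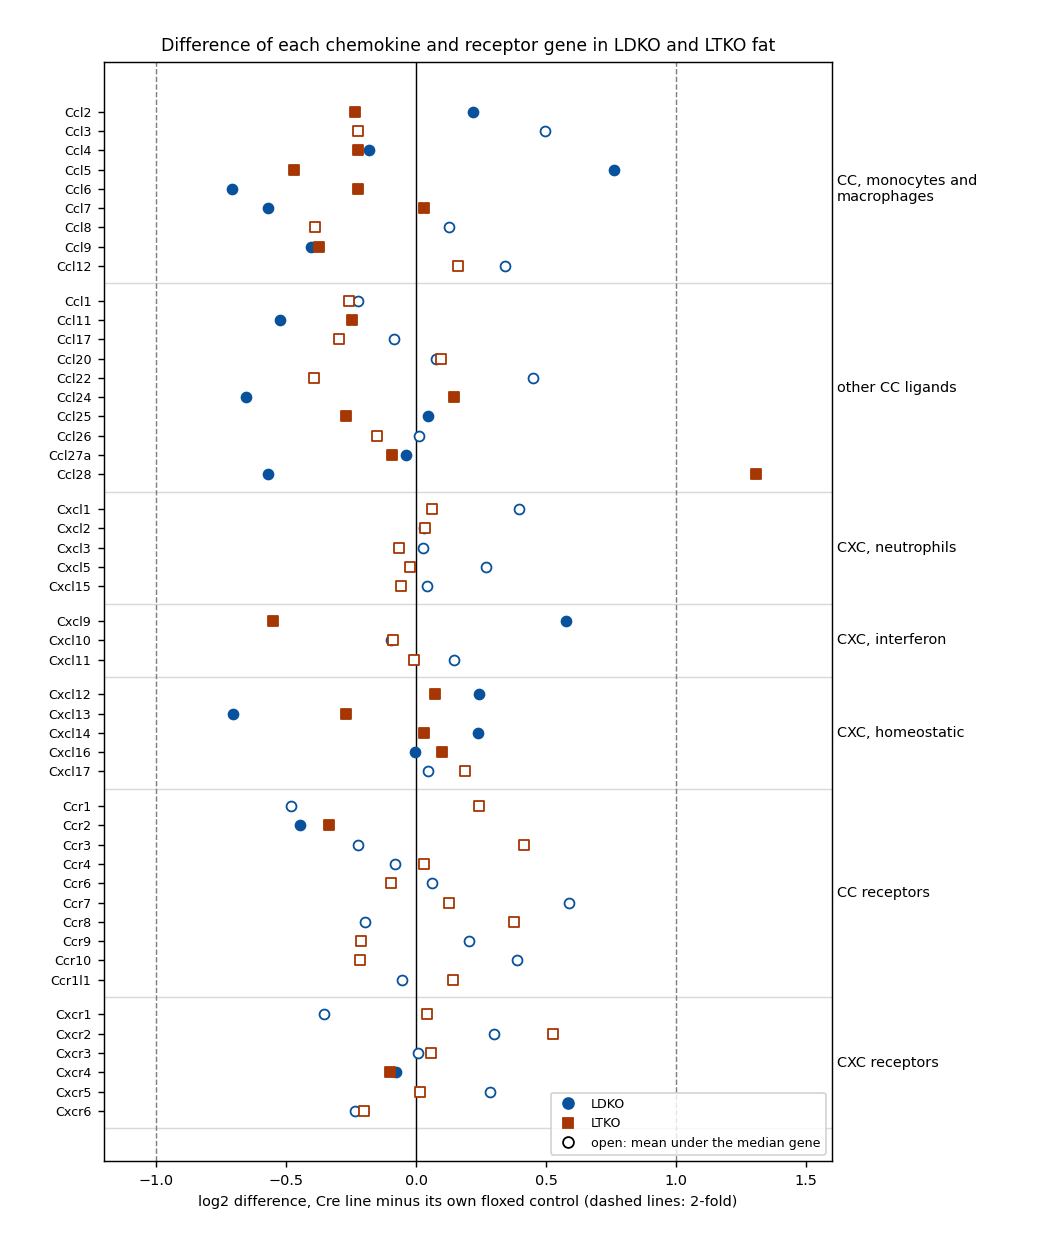
Log2 difference of each of the 48 members in LDKO (circles) and LTKO (squares) from its own floxed control, grouped by role, with open symbols for members whose mean lay under the median gene and dashed lines at 2-fold. Ccl28 in LTKO, at 1.31, is the one symbol beyond 2-fold, and Ccl5 and Cxcl9 lie on opposite sides of 0 in LDKO and LTKO.

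The remaining members that reached the median gene varied little. Cxcl14, an epithelial and stromal ligand, was at 5.69, 5.93, 5.62 and 5.65. Cxcl16, the membrane-bound ligand of Cxcr6, was at 7.008, 7.004, 6.74 and 6.84. Both lay slightly higher on the Irs1/2-flox line. Ccl25, which guides cells to thymus and gut through Ccr9, was at 5.74, 5.78, 5.99 and 5.72, with the Irs1/2:FoxO1-flox control highest. Ccl27a, a skin ligand of Ccr10, ranged over 0.09, from 5.50 to 5.59. Its dimmer second probe was at 4.23, 4.36, 4.34 and 4.31, with 0.13 in LDKO where the brighter probe gave -0.04.

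Dim receptors were lower in the Irs1/2:FoxO1-flox control than in the Irs1/2-flox control in 10 of 14, beside 54.1% of all dim genes, with a median of -0.35, and split 7 to 7 in LDKO. The largest of these differences were in Ccr3 at -0.81, Cxcr3 at -0.54 and Ccr1, a receptor of inflammatory CC ligands, at -0.53. Cxcr2, the receptor of the neutrophil ligands, was at 4.32, 4.62, 4.01 and 4.54 and was higher with Cre in each line. Cxcr1 was at 5.29 in the Irs1/2-flox control and between 4.91 and 4.96 on the other arrays. Cxcr6 was at 4.26, 4.02, 3.80 and 3.60, with the lines apart as for its ligand Cxcl16. Ccr4, Ccr6, Ccr8, Ccr9 and Ccr1l1 stayed between 2.41 and 3.55. Among the dim ligands, Ccl17 and Ccl22 of the Ccr4 axis reached at most 4.62 and 4.52, and Ccl1, Ccl20, Ccl26 and Cxcl17 at most 4.11, 5.05, 3.58 and 5.22.

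Many chemokine genes lie in clusters, and 31 members fell into 8 groups of neighbours no more than 300 kb apart in the RefSeq annotation. All members of a group lay in 1 direction in 1 of the 8 groups in LDKO, the neutrophil-attracting ligands, and in 4 of the 8 in LTKO. Of these 4, Cxcr1 and Cxcr2 were higher, and Ccl17 with Ccl22, Cxcl9 with Cxcl10 and Cxcl11, and the Ccl3 group were lower. In that last group Ccl3, Ccl4, Ccl5, Ccl6 and Ccl9 were all lower in LTKO than in its control, from -0.47 to -0.22, while in LDKO they spread from -0.71 to 0.76. Ccl1, Ccl2, Ccl7, Ccl8, Ccl11 and Ccl12 split 3 to 3 in LDKO and 2 higher to 4 lower in LTKO. The receptor cluster of Ccr1, Ccr1l1, Ccr2, Ccr3, Ccr9 and Cxcr6 was lower in 5 of 6 in LDKO and split 3 to 3 in LTKO. Of all genes, clustered or not, 49.7% were lower in LDKO and 54.3% in LTKO. Some groups were only pairs, and some shared directions held very small differences. In LTKO Cxcl10 and Cxcl11 were at -0.09 and -0.01, and in LDKO Cxcl2, Cxcl3 and Cxcl15 were at 0.03, 0.03 and 0.04. The neutrophil-attracting ligands were all dim, and 57.8% of all dim genes were higher in LDKO.

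Of 11 other genes of the chemokine system, 3 were higher and 8 lower in LDKO, where 49.7% of all genes were lower. In LTKO 5 were higher and 6 lower, where 54.3% of all genes were lower. None of the 11 was 2-fold apart in either comparison. At 1.5-fold 1 was apart, Pf4, a platelet and macrophage CXC chemokine, at 6.73, 6.26, 6.60 and 5.70 with -0.90 in LTKO. Ackr2, a scavenger receptor that removes inflammatory CC chemokines, was at 6.92, 6.51, 7.18 and 6.69, lower with Cre in each line. Ppbp, another platelet chemokine, was at 5.34, 5.03, 5.66 and 5.36, with the same pattern. Cx3cr1, the receptor of fractalkine on monocytes, ranged from 6.06 to 6.19.

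Downstream of the receptors, 19 genes of signalling and trafficking were measured. In LDKO 8 were higher and 11 lower, and in LTKO 7 were higher and 12 lower. Of all genes that reached the median gene, as 17 of the 19 did, 57.4% were lower in LDKO and 58.1% in LTKO. The Gi protein genes Gnai2 and Gnai3, which carry the receptor signal, differed by 0.15 and -0.02 in LDKO and by -0.05 and 0.04 in LTKO. Rac2, a leukocyte GTPase of cell movement, was at 6.64, 6.94, 6.78 and 6.33, the array order of Ccl5. Dpp4, a protease that trims chemokines and marks stromal progenitors, was at 8.93, 8.16, 8.36 and 8.41, and at -0.77 it was the 1 gene of the list 1.5-fold apart in LDKO. Of 21 inducers of chemokines, 9 were higher and 12 lower in LDKO, and 6 were higher and 15 lower in LTKO. Beside them, 49.7% of all genes were lower in LDKO and 54.3% in LTKO. Stat3, which carries cytokine signals to the nucleus, was at 9.30, 8.67, 9.22 and 9.21, -0.63 in LDKO, and was the 1 inducer 1.5-fold apart in either comparison. Il33, an alarm cytokine of stroma, was at 6.62, 6.19, 6.71 and 6.17, and Tnfaip3, a target and brake of NF-kB, at 6.29, 6.01, 5.80 and 5.53. Tnf and Ifng were dim, at most 4.42 and 3.99.

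**Figure D4:**
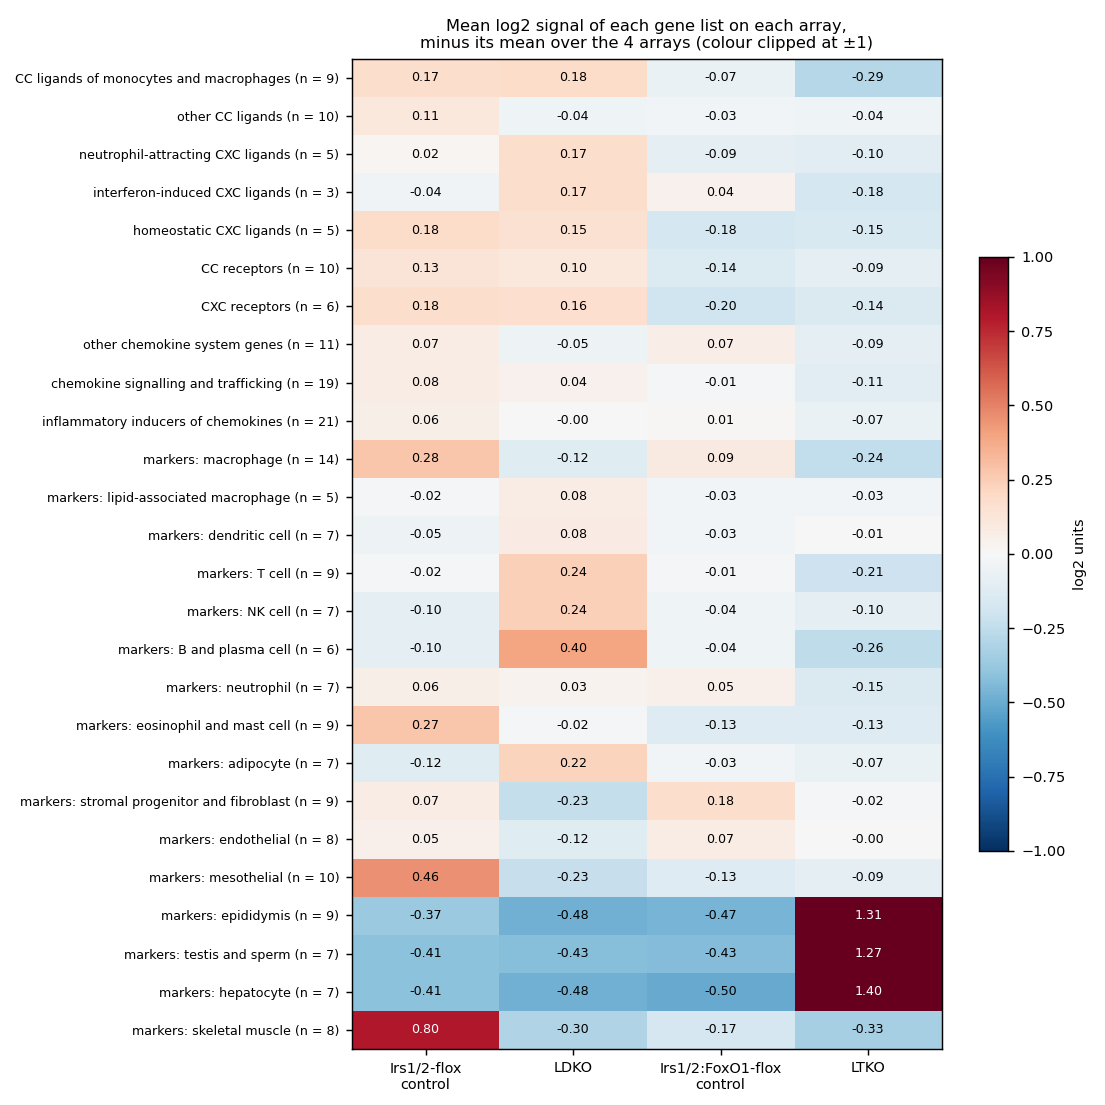
Mean log2 signal of each gene list on each array minus the list's mean over the 4 arrays, with red above and blue below and n the genes measured. The bands of homeostatic CXC ligands, CC receptors and CXC receptors are positive on both arrays of the Irs1/2-flox line and negative on both of the other line. So are those of the CC ligands of monocytes and macrophages, the neutrophil-attracting CXC ligands and the signalling and trafficking genes. The macrophage band is highest in the Irs1/2-flox control. The marker bands highest in LDKO are those of T, NK, B and dendritic cells, adipocytes and lipid-associated macrophages.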

How the data were processed

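The data are 4 arrays of mouse epigonadal fat, 1 per genotype. The deposited log2 signals were made by the authors with Affymetrix Expression Console and RMA, per the submitters' processing notes, with versions not given in the sources used here. RMA takes out any shift that all genes share and shrinks differences between dim signals. Array medians ran from 4.68 to 4.73, and pairs of arrays correlated at 0.986 to 0.991 across genes. Precision is limited by the number of arrays.

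Of 41345 probes, 23521 had 1 symbol, 1814 several and 16010 none in the annotation used, and 23328 symbols were updated through gene identifiers to RefSeq GRCm38.p6, used for names, neighbours and promoter windows. Groups came from the source names. Differences were subtracted on the log2 scale; a gene passed the filter where the higher array reached the median gene, 5.15. Counts at 2-fold and medians were set beside all genes, with no test. Of 250 symbols on the role, pathway and marker lists 231 were measured; the others were not analysed here. Members and lists were chosen with earlier results of these data known. Members at or above the median gene, and dimmer ones at least 1.5-fold apart in a comparison they passed, were given on every array, and up to 4 genes of other lists, beside a few chosen after their values were seen. Protein sequences were not used here, so promoters took their place, also chosen after the values were seen. Alternatives were other thresholds, filters, probe rules, references, repeated quantile normalization and a loess curve (span 0.3); a median within 0.1 of its first value was counted as unmoved. Scripts (Python 3.11.15, pandas 2.3.3, numpy 2.4.6, statsmodels 0.14.6, scipy 1.17.1, Biopython 1.88, matplotlib 3.10.9) were tested on simulated data.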

Additional observations from a re-analysis of the deposited data

Results flagged for a closer look

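The effects of LTKO and LDKO, each against its own floxed control, had opposite signs and were at least 2-fold apart for 3 members, and this difference was not tested, since each group had 1 array. For Ccl28 the effect in LTKO minus that in LDKO was 1.87, from 1.31 in LTKO and -0.57 in LDKO. For Ccl5 it was -1.23, from -0.47 and 0.76, and for Cxcl9 it was -1.13, from -0.55 and 0.58.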

How the results depend on the processing

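No paired analysis was possible because each group had 1 array, and no replicate could be left out. With a threshold of 1.5-fold in place of 2-fold the members apart went from 0 to 5 in LDKO, from 1 to 3 between the controls, from 2 to 6 between LTKO and LDKO and from 3 to 5 for the difference of the effects; with 3-fold they were 0 in LTKO, 0 between the controls, 0 between LTKO and LDKO and 1 for the difference of the effects. Ccr7, counted at 1.5-fold in LDKO and between LTKO and LDKO, passed the filter only through LDKO. Between LTKO and LDKO, quantile normalization again and a loess curve each gave 3 members at 2-fold, 1 higher and 2 lower, in place of 2. Against the mean of both controls LTKO had 2 members apart, 1 higher and 1 lower. Against the other control it had 1, as in the report, but Cxcl13 at -1.85 took the place of Ccl28 at 0.97. The median over members was -0.13 in LDKO, 0.0185 over all measured members and 0.0997 against the other control, so its sign depends on both choices. It was -0.22 in LTKO, -0.0612 over all measured members, -0.0941 as a mean and -0.357 against the other control, and between the controls it went from -0.304 to -0.170 over all measured members. Of the 19 members given on every array, 8 changed sign in LDKO and 5 in LTKO against the other control, and 1 in LDKO and 0 in LTKO with a loess curve removed. The pairs across the lines, chosen after seeing the data, gave 34 to 39 of 48 members lower in the Irs1/2:FoxO1-flox line. For the 30 dim members the signal over background limits what can be read from a difference.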

Other observations

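Another 33 probes carried several symbols with a chemokine or receptor symbol among them, and no gene can be named from them. Their signals ran from 3.85 to 9.65. Their differences ran from -0.14 to 0.31 in LDKO and from -0.29 to 0.69 in LTKO, with 0 of 33 at least 2-fold apart in either and 1 at least 1.5-fold apart in LTKO.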
